A study of Mus musculus with 16 samples.

Results

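The transcripts described here are those of 10 genes of cytosolic DNA sensing and type I interferon signalling: Cgas, Tmem173 (the gene of STING), Tbk1, Ikbke, Irf3, Trex1, Mavs, Ifnar1, Ifnar2 and Enpp1. They were taken by symbol from the 32285 genes of the count tables, and all 10 were found. RNA of single nuclei was counted in the hippocampus of female mice aged 9 months, in 16 libraries of 4 groups with 4 libraries each. By their labels the groups were Ch25h+/+ without tau (Ch25h+/+ Tau-), Ch25h+/+ with tau (Ch25h+/+ Tau+), Ch25h-/- without tau (Ch25h-/- Tau-) and Ch25h-/- with tau (Ch25h-/- Tau+). Ch25h encodes cholesterol 25-hydroxylase, an interferon-induced enzyme, and the study's title sets it between STING, interferon and tau pathology. The labels name neither the tau line nor its promoter, so what limits it as a model is not given in the sources used here, and they do not say that the libraries of a group came from separate animals. P-values therefore measure the spread between these libraries, which may in part be technical.

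cGAS is an enzyme that binds double-stranded DNA in the cytosol and makes the messenger cyclic GMP-AMP (cGAMP), which the membrane protein STING recognises. STING then gathers the kinase TBK1, and its relative IKKε (Ikbke), to phosphorylate the transcription factor IRF3, which switches on type I interferon genes; MAVS does the same for sensors of viral RNA. TREX1 breaks down cytosolic DNA and ENPP1 breaks down cGAMP outside cells. Secreted interferon binds a receptor of the chains IFNAR1 and IFNAR2, which signals through transcription factors that include STAT2 and IRF9 to the interferon-stimulated genes, and in the brain microglia are known for strong expression of STING.

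Values are counts of unique molecular identifiers (UMIs) per 1000000 UMIs of the same nuclei (CPM), given per library or as mean ± SD. The libraries held 51270831 to 84870650 UMIs each, and 7601 to 10567 nuclei per library, 136828 in all, were kept. Cell classes were named from marker genes, so that each name stands for nuclei with that class's transcripts. DG granule neurons (21823 nuclei) and CA pyramidal neurons (20009 nuclei), which mark the hippocampus, were both found, and between 8.09 and 15.7% of a library's nuclei stayed unnamed. Any pair of libraries shared 10 to 40 nuclear barcodes. To look at the spread within groups, the mean of each group was taken out of each gene, so differences between groups do not enter. Along the first principal component of what remained in the classes, replicates 1 and 2 of each group had the opposite sign to replicates 3 and 4. The exception was 1 Ch25h+/+ Tau+ library (replicate 4) in 1 of 8 classes, microglia. The labels name no batch for this library split. Ch25h itself had 38 UMIs over the nuclei of the 4 libraries labelled Ch25h+/+ Tau-, 94 in Ch25h+/+ Tau+, 76 in Ch25h-/- Tau- and 96 in Ch25h-/- Tau+, or 0.147 to 0.240, 0.320 to 0.778, 0.204 to 0.436 and 0.294 to 0.554 CPM per library, so it was not lower in the libraries labelled Ch25h-/-. The labels do not say which part of Ch25h was deleted, and 3' tags outside that part check nothing, so Ch25h-/- below means only the libraries labelled so. Mapt, the mouse gene of tau, was at 387 to 443 CPM in Ch25h+/+ Tau- and 380 to 465 in Ch25h+/+ Tau+, which overlap, and at 348 to 378 in Ch25h-/- Tau- and 421 to 506 in Ch25h-/- Tau+, which do not. Whether transcripts of a tau transgene were counted to Mapt was not tested, so Tau+ and Tau- too stand for the labels.

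The sensor and the adaptor of the pathway were at their highest levels in microglia. Cgas (GRCm38, chromosome 9, 78430526 to 78443237, minus strand) was at 49.96 ± 15.06 CPM in microglia (SD, n = 16 libraries), at 2.90 ± 0.62 in CA pyramidal neurons and at 2.71 ± 0.68 in DG granule neurons, and its 5 UMIs in 13945 astrocytes came to 0.140 CPM over all libraries together. Barcodes with under 100 UMIs, which mostly hold free RNA, had 4.45 CPM of Cgas, above the level of each class other than microglia. The part of free RNA in the low values of those classes was not tested. Tmem173 was at 88.5 ± 27.1 CPM in microglia. Mural cells had 6.32 CPM over all libraries (5 UMIs in 4 libraries, 95% Poisson interval 2.05 to 14.8) and fibroblasts 5.83 (4.16 to 7.94), an order that counting error does not settle, beside 4.77 in low-UMI barcodes. Nuclei with markers of border-associated macrophages, set apart only at a finer clustering, had 29.9 CPM (19.1 to 44.5). No UMI of Tmem173 was found in ependymal or Cajal-Retzius cells, which allows up to 1.33 and 0.861 CPM there (3 counts). Of 957 UMIs of Tmem173 in all nuclei, 756 were in microglia. Of 2027 UMIs of Cgas in all nuclei, 479 were in microglia, 614 in CA pyramidal neurons and 367 in DG granule neurons. These levels are a description, since the classes were made from the same nuclei.

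Of the enzymes that break down DNA and cGAMP, Trex1 had no UMI and Enpp1 had its highest level outside microglia. Trex1 had 0 UMIs among 817537693 in all nuclei, which allows 0.00367 CPM, and 0 in low-UMI barcodes. Its gene (GRCm38, chromosome 9, 109057933 to 109059734, minus strand) lies wholly within Atrip on the same strand, which had 24473 UMIs, and whether reads of Trex1 were counted to Atrip or dropped was not tested. Nothing is said here about the transcription of Trex1. Enpp1 was highest in fibroblasts, at 145 ± 60.6 CPM (SD, n = 16), followed by oligodendrocytes at 25.6 ± 4.57 and microglia at 12.9 ± 7.89. Its level in astrocytes and in each class of neurons was below the 4.23 CPM of low-UMI barcodes, and Cajal-Retzius cells had no UMI (up to 0.861 CPM). Enpp1 is known as a surface enzyme of mesenchymal cells, where it also makes pyrophosphate.

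Mavs, the gene of the adaptor of the RNA sensors, was most abundant in choroid plexus epithelial cells at 38.0 ± 9.70 CPM (SD, n = 14 libraries with such nuclei), followed by microglia at 29.0 ± 10.5, fibroblasts at 19.9 ± 8.57 and astrocytes at 17.5 ± 3.84. The spreads of neighbours in that order overlap. Pyramidal neurons of the CA fields held 0.683 CPM of Mavs over all libraries, below the 3.03 of low-UMI barcodes. The kinases had different profiles. Tbk1 was present in all 14 classes, at 157 ± 23.7 CPM in microglia and between 48.8 and 75.0 CPM over all libraries in the other classes, which span the 54.6 CPM of low-UMI barcodes. Ikbke (chromosome 1, 131254343 to 131279606, minus strand, 13.5% of it shared with the antisense gene Gm28913, which had 74 UMIs) was highest in ependymal cells at 48.4 CPM over all libraries, then in fibroblasts at 24.9, astrocytes at 15.7 and microglia at 12.6, against 2.02 in low-UMI barcodes. Oligodendrocytes had 0.439 CPM of Ikbke, the lowest of the classes. Irf3, which shares 20.5% of its span with Bcl2l12 on the opposite strand (1074 UMIs), was at overlapping levels in microglia (80.68 ± 14.97), choroid plexus epithelial cells (77.98 ± 17.88) and fibroblasts (73.6 ± 26.7), and at 19.1 to 27.3 CPM over all libraries in the 4 large classes of neurons, below the 48.0 of low-UMI barcodes.

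Of the 14 classes, both chains of the receptor had their highest levels in microglia and endothelial cells. Ifnar1 (chromosome 16, 91485238 to 91507441, plus strand) was at 124 CPM over all libraries in endothelial cells (102 UMIs in 342 nuclei), 69.5 in microglia, 44.2 in fibroblasts and 16.2 to 30.6 in the rest. Per library it was at 130 ± 86.5 CPM in endothelial cells and 65.4 ± 15.3 in microglia (SD, n = 16), whose spreads overlap. Ifnar2 (chromosome 16, 91372783 to 91405589, plus strand) was at 249 ± 45.6 CPM in microglia and 197 ± 111 in endothelial cells (SD, n = 16), whose spreads overlap. Fibroblasts followed at 79.8 ± 19.1 and choroid plexus epithelial cells at 72.6 ± 10.5, which do not differ beyond their spread, and inhibitory neurons were lowest at 14.2 ± 2.43. Clustering at a finer resolution set apart 457 nuclei with markers of border-associated macrophages. Their level of Ifnar2 was 276 CPM, of Tbk1 152, of Ifnar1 128 and of Cgas 26.2, beside 256 CPM of Ifnar2, 69.5 of Ifnar1 and 83.8 of Tmem173 in microglia over all libraries.

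**Figure D1:**
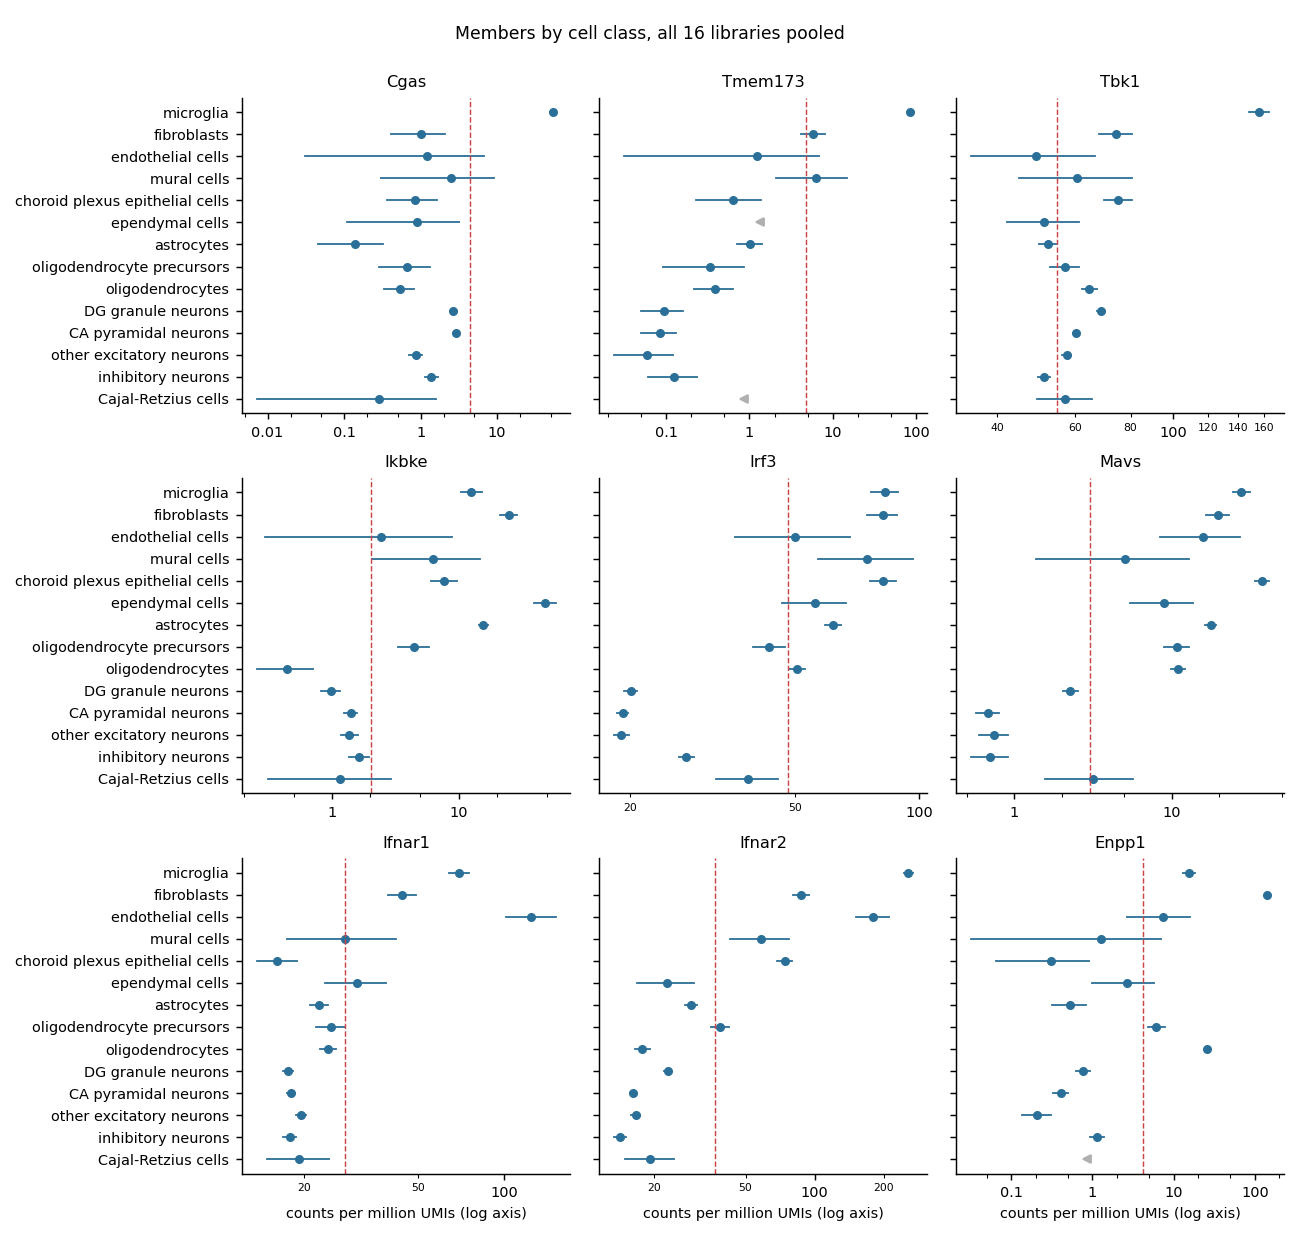
Level of 9 genes in each of 14 cell classes, in CPM over all 16 libraries (log axis; Trex1 had no UMI and is not drawn). Bars are exact 95% Poisson intervals, which cover counting error only, grey triangles mark the level that 0 counts allow, and the dashed line is the level in barcodes under 100 UMIs. Of these classes, Cgas, Tmem173, Tbk1 and Ifnar2 were highest in microglia, Ikbke in ependymal cells, Enpp1 in fibroblasts and Ifnar1 in endothelial cells.

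The genes whose class profile was most like that of a member were found by Pearson's r of log2(CPM + 1) over the 14 class means, among 20203 genes. For Tmem173 they were Gpsm3 (r = 0.99), Gm10790 (0.97) and Cd300a (0.96), and for Cgas they were Gm5134 (0.96), Daglb (0.95) and Fam83g (0.95). All 6 had their highest level in microglia. For Ikbke they were Gm40617 and Gm50107 (both 0.91) and Pygl (0.90), which were highest in ependymal cells. There Gm40617 was at 3.28 CPM and Gm50107 at 6.63, not far above the 1.33 CPM of 3 counts, and Pygl was at 132. Enpp1 was matched less closely, with Sec61a1 and Errfi1 at 0.87 and Cbx3 at 0.86, all highest in fibroblasts. The 14 points share libraries and depths, and the values are a description.

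The promoters of 9 of the 10 members were at hand from RefSeq (GRCm38.p6), as the 250 bases before each start of transcription. They were searched on both strands for the letters GAAA, any 2 bases and GAAA of an interferon-stimulated response element, TTCNNNGAA of a gamma-activated site and GGGAA, any 3 bases and CC of a kappa-B site. No member had the first, which 2.98% of all 32851 windows of the same length held. Ifnar2 held the second, TTCCTGGAA, 214 to 206 bases before its start on its own strand, as did 7.02% of all windows. Cgas held the third on the opposite strand, GGTGGTTCCC, 80 to 71 bases before its start, as did 4.94% of all windows. The matches lie in different genes and so do not overlap. Shown are the windows with these matches and that of Ifnar1, the neighbour of Ifnar2 on chromosome 16, whose level in microglia is described below. Capitals mark the matches, and each is 5′ to 3′ on the gene's strand: Ifnar2 at chr16:91372533-91372782 (plus strand), Ifnar1 at chr16:91484965-91485214 (plus strand) and Cgas at chr9:78443238-78443487 (minus strand). A match is only a match of letters, and no match says nothing about the factor.
Ifnar2: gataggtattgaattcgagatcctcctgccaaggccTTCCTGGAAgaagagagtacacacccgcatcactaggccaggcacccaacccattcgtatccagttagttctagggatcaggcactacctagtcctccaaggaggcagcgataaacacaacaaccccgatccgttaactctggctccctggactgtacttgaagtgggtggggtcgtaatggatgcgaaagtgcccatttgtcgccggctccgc
Ifnar1: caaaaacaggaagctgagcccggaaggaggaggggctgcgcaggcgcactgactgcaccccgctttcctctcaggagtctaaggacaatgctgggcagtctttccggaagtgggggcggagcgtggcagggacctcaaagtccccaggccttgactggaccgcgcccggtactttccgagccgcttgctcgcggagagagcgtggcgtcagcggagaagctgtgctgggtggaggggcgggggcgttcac
Cgas: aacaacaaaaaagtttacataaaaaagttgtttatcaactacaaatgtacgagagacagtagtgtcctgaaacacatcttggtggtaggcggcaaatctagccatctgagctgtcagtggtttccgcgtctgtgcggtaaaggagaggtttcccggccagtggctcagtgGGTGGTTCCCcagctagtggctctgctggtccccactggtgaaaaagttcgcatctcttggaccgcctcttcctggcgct

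To ask whether tau changed these genes, UMIs were summed per library in 8 classes and over all nuclei, and Tau+ was compared with Tau- within each Ch25h genotype and over both. Of 90 possible tests (10 genes in 9 sums), 57 passed the filter on low counts: all 9 sums for Tbk1, Irf3, Ifnar1 and Ifnar2, 7 for Mavs, 6 for Ikbke, 4 for Cgas, 2 each for Tmem173 and Enpp1, and none for Trex1. Over both genotypes 3 of the 57 tests passed an adjusted p of 0.05, each higher in Tau+: Ifnar2 in all nuclei, Ifnar1 in microglia and Ikbke in astrocytes. Over all genes 1.81% of 125612 tests did so. In Ch25h+/+ 1 test passed, Ifnar2 in all nuclei, where 0.238% of all tests did. In Ch25h-/- none passed, where 0.293% of all tests did, and DESeq2 called none. There 5 had an unadjusted p under 0.05 (8.77%, 3 of them higher in Tau+), beside 8.60% of all tests. The lowest adjusted p was 0.257. DESeq2 called Ifnar2 in all nuclei in Ch25h+/+ and over both genotypes, and over both also Enpp1 in all nuclei. It called neither Ifnar1 in microglia nor Ikbke in astrocytes. The shares of all tests beside these counts are those of edgeR, and none is given for DESeq2 here. The median log2 fold change of the 57 tests was 0.11 in Ch25h+/+, 0.06 in Ch25h-/- and 0.07 over both, beside -0.0040, -0.0042 and -0.0011 for all tests. At an unadjusted p under 0.05 stood 15 of the 57 over both genotypes (26.3%, all higher in Tau+), beside 11.5% of all tests. In Ch25h+/+ alone 16 did (28.1%, 15 of them higher in Tau+), beside 8.27% of all tests. The sums share libraries, all nuclei contain the classes, and the comparisons of tau and of Ch25h share groups.

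**Figure D2:**
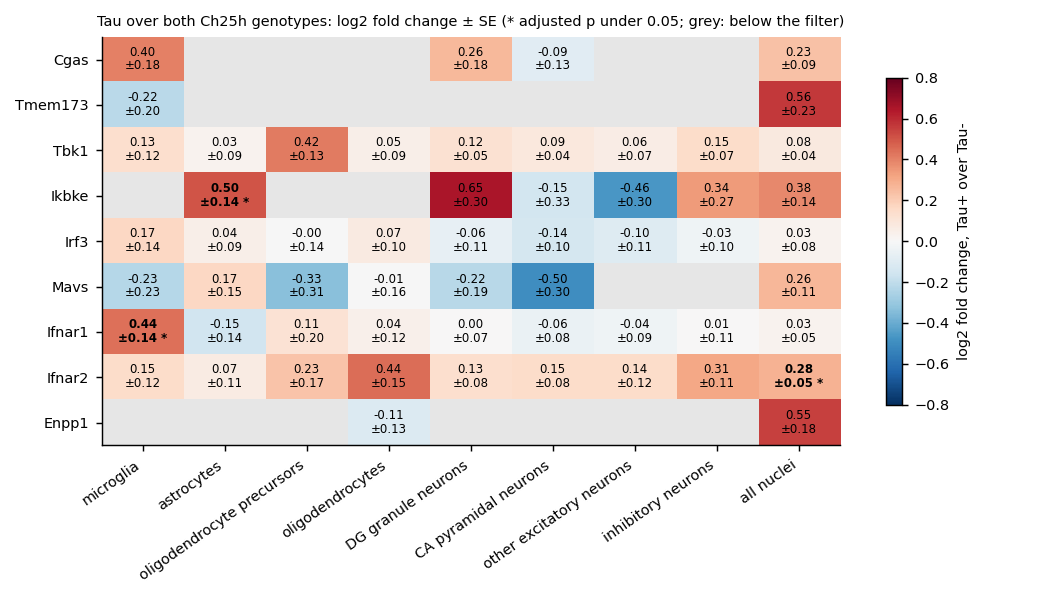
Log2 fold change of Tau+ over Tau- with its SE, over both Ch25h genotypes, for 9 genes (Trex1 passed in no sum) in 8 cell classes and all nuclei. An asterisk marks an adjusted p under 0.05 by edgeR, grey a gene below the filter on low counts. The 3 marked values are Ikbke in astrocytes (0.50), Ifnar1 in microglia (0.44) and Ifnar2 in all nuclei (0.28).

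The sensor Cgas did not pass the test of tau in any sum. Its level in microglia of Ch25h+/+ Tau- was 36.3, 45.3, 30.2 and 33.2 CPM in replicates 1 to 4. In Ch25h+/+ Tau+ it was 51.4, 54.9, 79.3 and 64.4 CPM, so that the groups did not overlap. Libraries of Ch25h-/- Tau- had 43.9, 69.2, 26.7 and 48.2 CPM, and those of Ch25h-/- Tau+ had 67.5, 59.4, 41.5 and 48.0. In Ch25h-/- the Tau+ values lay within the range of the Tau- values. The log2 fold change was 0.69 ± 0.26 (SE) in Ch25h+/+ (adjusted p = 0.183), 0.12 ± 0.24 in Ch25h-/- and 0.40 ± 0.18 over both (adjusted p = 0.177). In all nuclei Cgas was at 1.97 ± 0.25 CPM (SD, n = 4) in Ch25h+/+ Tau- and 2.83 ± 0.26 in Ch25h+/+ Tau+, with no overlap and an adjusted p of 0.164. In all nuclei without microglia the log2 fold change of Cgas was 0.11 ± 0.12 in Ch25h+/+ and -0.05 ± 0.08 over both. In CA pyramidal neurons it was 0.26 ± 0.18 in Ch25h+/+ and -0.09 ± 0.13 over both. It was -0.44 ± 0.18 there in Ch25h-/-, with an unadjusted p of 0.0235 and an adjusted p of 0.356 by edgeR.

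Values over all nuclei mix cell classes, and in them more nuclei of a class and more RNA per nucleus cannot be told apart. Shares here are of the nuclei that were given a class name. Microglia were 3.61 ± 0.93% of named nuclei (SD, n = 4) in Ch25h+/+ Tau- and 5.71 ± 1.73% in Ch25h+/+ Tau+. They were 3.88 ± 1.20% in Ch25h-/- Tau- and 5.97 ± 1.06% in Ch25h-/- Tau+. Fibroblasts were 1.25 ± 1.54%, 3.39 ± 1.28%, 3.43 ± 2.30% and 1.82 ± 1.08% of named nuclei in the same order. Oligodendrocytes were 17.7 ± 3.52%, 21.1 ± 3.82%, 12.3 ± 5.86% and 24.8 ± 2.58%. Of the 14 classes, 3 had shares in Tau- and Tau+ that did not overlap in a genotype. In Ch25h-/- oligodendrocytes were 7.16 to 18.9% in Tau- and 21.7 to 27.5% in Tau+, and DG granule neurons were 19.80 to 32.52% and 13.04 to 17.79%. In Ch25h+/+ CA pyramidal neurons were 16.1 to 21.5% and 14.6 to 15.7%. The part of these shares in the values over all nuclei was not tested, apart from the sum without microglia.

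Enpp1, which degrades cGAMP outside the cell, was at 3.80, 2.77, 2.95 and 1.74 CPM of all nuclei in Ch25h+/+ Tau- and at 4.99, 4.02, 6.32 and 4.01 in Ch25h+/+ Tau+. The Ch25h-/- Tau- libraries had 4.04, 1.77, 2.84 and 3.44 CPM, and those of Ch25h-/- Tau+ had 3.62, 4.99, 4.21 and 3.46. The groups did not overlap in Ch25h+/+ and overlapped in Ch25h-/-. Of 3001 UMIs of Enpp1 in all nuclei, 995 were in oligodendrocytes and 972 in fibroblasts. Over both genotypes the log2 fold change was 0.55 ± 0.18 with an adjusted p of 0.0933 by edgeR and 0.0346 by DESeq2. Within fibroblasts, its main class, Enpp1 was at 168 ± 67.2 CPM in Ch25h+/+ Tau- and 130 ± 47.5 in Ch25h+/+ Tau+, and at 124 ± 59.3 in Ch25h-/- Tau- and 159 ± 78.6 in Ch25h-/- Tau+ (SD, n = 4). Those differences are smaller than the spread between libraries. Some libraries had few UMIs of Enpp1 in fibroblasts, with 17, 12, 51 and 11 in Ch25h+/+ Tau- and 1 in replicate 2 of Ch25h-/- Tau-. Counting error is part of that spread, so these values do not show that Enpp1 was unchanged in fibroblasts. In oligodendrocytes the log2 fold change over both genotypes was -0.11 ± 0.13. In microglia, the class with the next highest level, Enpp1 was below the filter on low counts, at 18.2, 5.03, 13.4 and 4.14 CPM in Ch25h+/+ Tau- and 29.8, 23.2, 2.83 and 17.9 in Ch25h+/+ Tau+, which overlap. There it was at 2.44, 12.7, 3.81 and 9.65 CPM in Ch25h-/- Tau- and 17.5, 13.1, 14.9 and 17.6 in Ch25h-/- Tau+, which do not. Without the filter edgeR gave a log2 fold change of 0.97 ± 0.33 over both genotypes (adjusted p = 0.0607), which did not pass.

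The adaptors did not pass the test in any sum. Tmem173 (STING) in microglia was at 116, 80.5, 124 and 74.6 CPM in Ch25h+/+ Tau- and at 54.5, 69.5, 144 and 93.0 in Ch25h+/+ Tau+. In Ch25h-/- Tau- it was at 95.1, 96.5, 45.7 and 104 CPM, and in Ch25h-/- Tau+ at 63.8, 65.5, 113 and 76.7. In both Tau+ groups replicate 3 was the highest and replicates 1 and 2 the lowest. The log2 fold change over both genotypes was -0.22 ± 0.20 (adjusted p = 0.617). Within replicates 1 and 2 alone it was -0.65 (adjusted p = 0.0104), and within replicates 3 and 4 alone 0.20 (adjusted p = 0.856). The fitted signs differed, but the value in replicates 3 and 4 was not called. The library split was found from these same data, and each side has 2 libraries per group. Whether the sides differ was not tested, and nothing is read from either side alone. In all nuclei, where the mean share of microglia was larger in Tau+, Tmem173 had a log2 fold change of 0.56 ± 0.23 (adjusted p = 0.189). Without microglia it was 0.22 ± 0.23 over both genotypes (adjusted p = 0.734), made of 1.17 ± 0.33 in Ch25h+/+ (0.229) and -0.74 ± 0.32 in Ch25h-/- (0.442). Fibroblasts of Ch25h+/+ held 0, 0, 1 and 0 UMIs of Tmem173 in Tau- and 9, 6, 5 and 3 in Tau+ (0 to 1.94 and 6.72 to 12.6 CPM). In Tau- replicates 1 and 2 of Ch25h+/+, 0 UMIs allow up to 45.8 and 37.3 CPM (3 counts), above the Tau+ values. A separation of these groups therefore cannot be read from the counts at this depth. In Ch25h-/- they held 1, 0, 5 and 6 in Tau- and 1 in each library of Tau+. The part of fibroblasts in the sum without microglia was not tested.

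Mavs in microglia had a log2 fold change of -0.23 ± 0.23 over both genotypes (adjusted p = 0.646), and 0.15 within replicates 1 and 2 alone. Its widest group was Ch25h+/+ Tau-, at 15.9 to 58.0 CPM. In astrocytes it was at 14.2 ± 3.11 CPM in Ch25h+/+ Tau- and 18.2 ± 2.61 in Ch25h+/+ Tau+, at 18.1 ± 3.87 in Ch25h-/- Tau- and 19.4 ± 4.70 in Ch25h-/- Tau+ (SD, n = 4), with overlap in both genotypes. In CA pyramidal neurons, where its level was below that of low-UMI barcodes, the log2 fold change in Ch25h-/- was -1.13 ± 0.42 (adjusted p = 0.300).

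Ikbke, the inducible relative of TBK1, rose with tau in astrocytes. In Ch25h+/+ Tau- astrocytes it was at 8.50, 11.2, 11.5 and 10.1 CPM. In Ch25h+/+ Tau+ it was at 21.5, 19.0, 14.1 and 17.4 CPM, all above the former. In Ch25h-/- Tau- it was at 19.1, 11.4, 15.8 and 14.6 CPM, and in Ch25h-/- Tau+ at 17.7, 14.8, 22.0 and 21.0, which overlap. The log2 fold change over both genotypes was 0.50 ± 0.14, with an adjusted p of 0.04996 that lay just under the threshold, among 3.38% of astrocyte genes called. It was 0.72 ± 0.20 in Ch25h+/+ (adjusted p = 0.118) and 0.29 ± 0.19 in Ch25h-/- (adjusted p = 0.779). The call was lost on leaving out any of 13 of the 16 libraries and under 7 of 9 other settings, with RLE scaling (adjusted p = 0.0516) and DESeq2 (0.0676) among them. The 15 markers of microglia summed to 88.8 to 132 CPM in Ch25h+/+ Tau- astrocytes, 104 to 169 in Ch25h+/+ Tau+, 98.2 to 137 in Ch25h-/- Tau- and 128 to 156 in Ch25h-/- Tau+, with none at 0. Markers of 17 other classes were summed in astrocytes in all. In Ch25h+/+, those of CA pyramidal neurons (125 to 140 CPM in Tau-, 161 to 213 in Tau+) and endothelial cells (4.63 to 7.84 and 8.65 to 10.1) were higher in Tau+ with no overlap. In Ch25h-/-, those of Cajal-Retzius cells (19.1 to 28.9 and 29.4 to 40.0) and T cells (5.14 to 7.07 and 7.21 to 11.9) were higher and those of fibroblasts lower (189 to 234 and 157 to 185) with no overlap. Markers of ependymal cells, the class with the highest level of Ikbke (48.4 CPM over all libraries), were at 8.15 to 57.9 CPM in Ch25h+/+ Tau- astrocytes, 23.4 to 68.3 in Ch25h+/+ Tau+, 12.95 to 49.9 in Ch25h-/- Tau- and 14.1 to 67.5 in Ch25h-/- Tau+. The part of these transcripts in the result was not tested.

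In microglia Ikbke had too few UMIs for the filter, and most of its 114 UMIs were in Tau+. Replicates 1 to 4 of Ch25h+/+ Tau- held 1, 1, 2 and 0 UMIs (2.27, 2.52, 6.71 and 0 CPM). Those of Ch25h+/+ Tau+ held 21, 14, 1 and 10 UMIs (21.6, 17.1, 2.83 and 11.9 CPM). Ch25h-/- Tau- held 2, 1, 1 and 0 UMIs (4.88, 1.82, 3.81 and 0 CPM), and Ch25h-/- Tau+ held 30, 15, 1 and 14 (37.5, 15.1, 1.66 and 22.4 CPM). Replicate 3 of each Tau+ group was at the level of Tau-, and the other 6 Tau+ libraries were above every Tau- library. Without the filter on low counts edgeR gave a log2 fold change of 2.30 in Ch25h+/+ (adjusted p = 0.0246, where 2.37% of microglial genes were called), 2.91 in Ch25h-/- (4.41e-04, 2.05% called) and 2.60 over both (8.81e-07, 5.11% called). A two-sided exact permutation test of the difference within genotypes, chosen after the values were seen, gave 13.5 CPM and p = 0.00571 over 4900 arrangements. Within Ch25h+/+ the exact permutation p was 0.0571 for 10.5 CPM and within Ch25h-/- it was 0.114 for 16.5 CPM, where 0.0286 is the smallest p that 70 arrangements allow. Replicates 1 and 2 alone differed by 19.9 CPM (exact permutation p = 0.0556, the smallest possible) and replicates 3 and 4 by 7.07 (exact permutation p = 0.278).

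Other transcripts of microglia also set the same 2 libraries apart. Axl, a receptor of activated microglia, was at 2.83 CPM in replicate 3 of Ch25h+/+ Tau+ and 14.9 in replicate 3 of Ch25h-/- Tau+, against 74.6 to 149 in the other 6 Tau+ libraries. The 31 interferon-stimulated genes summed to 887 and 1092 CPM in these 2 libraries, 1533 to 3408 in the other 6 and 705 to 990 in Tau-. P2ry12, Tmem119 and Cx3cr1 went the other way, with these 2 libraries the highest of their Tau+ groups. Tmem119 was at 207 and 222 CPM there, against 85.3 to 124 and 105 to 163 in the other libraries of the same groups. P2ry12 was at 1113 and 1223 CPM, against 658 to 812 and 745 to 1173. Cx3cr1 was at 1521 and 1515 CPM, against 888 to 1103 and 989 to 1392. Markers of border-associated macrophages summed to 231 to 356 CPM in Ch25h+/+ Tau- microglia (5 of 8 with a UMI), 146 to 249 in Ch25h+/+ Tau+ (6 of 8), 218 to 285 in Ch25h-/- Tau- (3 of 8) and 153 to 219 in Ch25h-/- Tau+ (4 of 8). Most of that was Stab1, with Mrc1 at 32 UMIs and Cd163 at 1 over all microglia. T cell markers summed to at most 36.8 CPM in any library, with Cd3e, Trac, Cd8a and Cd4 at 0. Of 17 lists of other classes, 3 had Tau+ and Tau- microglia without overlap in a genotype. Markers of CA pyramidal neurons were lower in Tau+ of Ch25h+/+ (577 to 622 CPM in Tau-, 426 to 541 in Tau+). In Ch25h-/- those of oligodendrocytes were higher (137 to 298 and 342 to 496) and those of astrocytes lower (509.9 to 680.2 and 373 to 490). Over both genotypes Apoe (log2 fold change 2.20, adjusted p = 0.0128), Axl (5.35, 0.00270), Itgax (4.15, 0.00312) and Lpl (4.49, 0.00170) rose in microglia. Tau- libraries held only 0 to 2 UMIs of Axl, 0 to 3 of Itgax and 0 to 3 of Lpl. Axl, Itgax and Lpl thus passed the filter on low counts through Tau+ libraries, and the size of their fold changes depends on the prior count. P2ry12 (-0.42, 0.0306) and Tmem119 (-0.89, 0.00732), genes of resting microglia, fell, while Cx3cr1, another of them, did not pass (-0.35, 0.0948). The part of that shift and of these markers in the results of Ikbke and Ifnar1 was not tested.

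**Figure D3:**
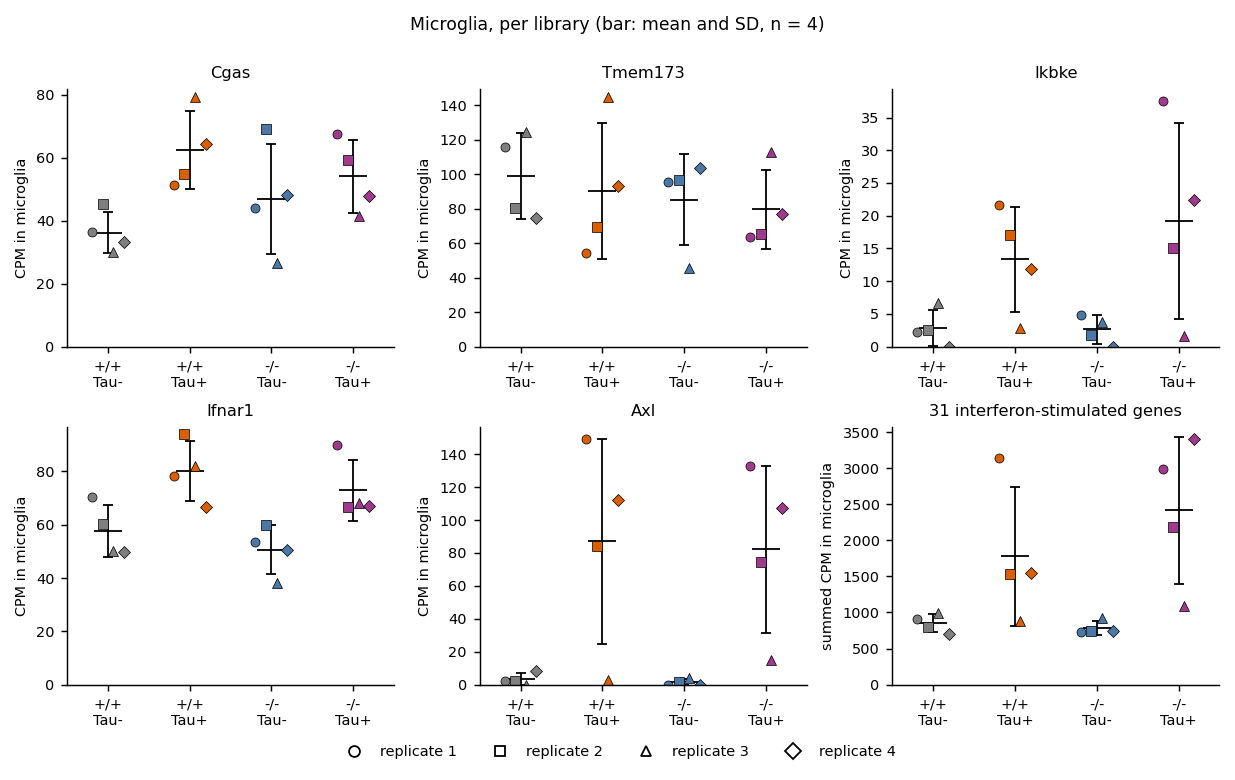
Level in microglia of Cgas, Tmem173, Ikbke, Ifnar1 and Axl and the summed level of 31 interferon-stimulated genes, per library (CPM), for the 4 genotype groups; bars are the mean and SD of 4 libraries and symbols the replicates. Replicate 3 (triangle) of both Tau+ groups lies with Tau- for Ikbke (2.83 and 1.66 CPM) and near it for Axl (2.83 and 14.9 CPM). For Ifnar1 (82.1 and 68.0 CPM) it lies above each Tau- library of its own genotype. The 68.0 CPM of Ch25h-/- Tau+ is below the 70.4 of Ch25h+/+ Tau- replicate 1.

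Tbk1 did not pass the test in any sum. In all nuclei it was at 57.4 ± 2.40 CPM in Ch25h+/+ Tau- and 64.2 ± 1.22 in Ch25h+/+ Tau+, and at 59.1 ± 2.72 in Ch25h-/- Tau- and 63.28 ± 3.501 in Ch25h-/- Tau+ (SD, n = 4). CPM values are unscaled, and after TMM scaling the log2 fold change over both genotypes was 0.08 ± 0.04 (adjusted p = 0.311). In microglia it was 0.13 ± 0.12 (adjusted p = 0.578). In oligodendrocyte precursors Tbk1 was at 46.1, 45.4, 45.9 and 43.4 CPM in Ch25h+/+ Tau- and at 48.7, 62.4, 75.4 and 64.5 in Ch25h+/+ Tau+, with no overlap. In Ch25h-/- Tau- precursors it was at 46.8, 52.8, 57.2 and 47.1 CPM and in Ch25h-/- Tau+ at 65.1, 76.2, 74.9 and 50.9, which overlap through 1 Tau+ library. The fold change over both there was 0.42 ± 0.13, with an unadjusted p of 0.0022 and an adjusted p of 0.346. Irf3, the factor these kinases phosphorylate, had a log2 fold change of 0.03 ± 0.08 in all nuclei and 0.17 ± 0.14 in microglia (adjusted p = 0.915 and 0.553). IRF3 is controlled by phosphorylation, which RNA counts do not measure.

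Of the receptor chains, Ifnar2 rose with tau in the sum of all nuclei. It was at 20.9, 19.8, 17.3 and 18.9 CPM in Ch25h+/+ Tau- and at 29.2, 26.0, 27.1 and 27.8 in Ch25h+/+ Tau+. In Ch25h-/- Tau- it was at 21.8, 20.2, 20.3 and 21.7 CPM and in Ch25h-/- Tau+ at 22.2, 23.7, 21.8 and 25.5. All Tau+ libraries of Ch25h+/+ were above their controls by a wide margin, while in Ch25h-/- the lowest Tau+ and the highest Tau- library were nearly equal. The log2 fold change was 0.43 ± 0.07 in Ch25h+/+ (adjusted p = 0.0443, where 0.126% of genes were called), 0.13 ± 0.07 in Ch25h-/- (adjusted p = 0.524) and 0.28 ± 0.05 over both (adjusted p = 0.00959, where 4.63% of genes were called). The difference between the 2 tau effects was -0.29 ± 0.10 with an adjusted p of 0.793, so it was not called. Leaving out any 1 of the 16 libraries kept the call over both genotypes (adjusted p 0.0100 to 0.0243). In Ch25h+/+ the call was lost on leaving out any of 11 libraries (0.0247 to 0.158). Over both genotypes the call was lost under 3 of 10 other settings, as it was in Ch25h+/+, the sum without microglia among them.

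The call in all nuclei was lost without microglia, the class with the highest level. In that sum, a comparison added after the values were seen, the log2 fold change of Ifnar2 was 0.35 ± 0.07 in Ch25h+/+ (adjusted p = 0.147), 0.03 ± 0.07 in Ch25h-/- (0.947) and 0.19 ± 0.05 over both (0.0685), none past the threshold. Fewer genes of any kind were called in that sum, 0.0425% in Ch25h+/+, 0.576% in Ch25h-/- and 1.72% over both. Class by class, Ifnar2 was above 0 over both genotypes in 8 of 8 classes, at 0.07 to 0.44 with a median of 0.15, and called in none. The highest was in oligodendrocytes, at 0.44 ± 0.15 (adjusted p = 0.288). In Ch25h+/+ it was at 12.88, 17.63, 15.05 and 11.41 CPM there in Tau- and 19.1, 23.3, 19.8 and 26.9 in Tau+, with no overlap. In Ch25h-/- it was at 15.9, 16.6, 13.3 and 10.3 CPM in Tau- and 14.5, 13.7, 17.6 and 21.9 in Tau+, which overlap. In microglia themselves the fold change was 0.15 ± 0.12 (adjusted p = 0.540), from 232 ± 77.1 to 265.9 ± 44.04 CPM in Ch25h+/+ and from 236 ± 24.3 to 261 ± 27.1 in Ch25h-/- (SD, n = 4). Gm21970, which covers 42.3% of Ifnar2 on the same strand, is not among the genes of the files.

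**Figure D4:**
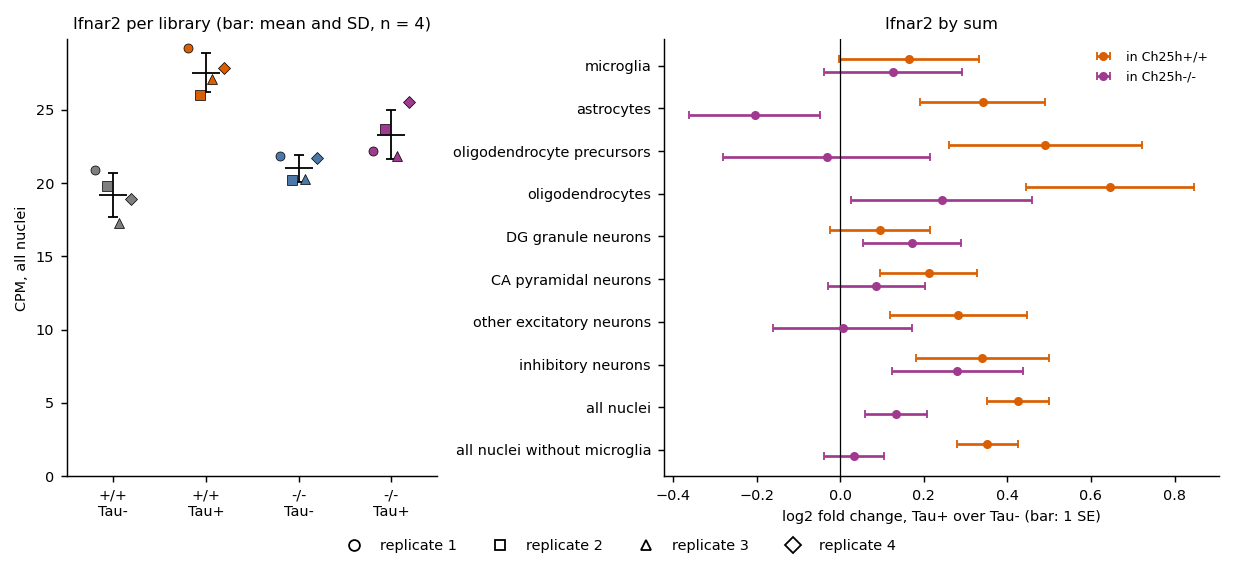
Ifnar2 per library over all nuclei (left, CPM; bars are the mean and SD of 4 libraries) and its log2 fold change of Tau+ over Tau- in each class, in all nuclei and in all nuclei without microglia (right; bars are 1 SE; orange Ch25h+/+, purple Ch25h-/-). In Ch25h+/+ the 8 classes lie between 0.10 and 0.65, and in Ch25h-/- between -0.20 and 0.28.

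Ifnar1 rose with tau in microglia. It was at 70.4, 60.4, 50.3 and 49.7 CPM in Ch25h+/+ Tau- and at 78.1, 93.9, 82.1 and 66.8 in Ch25h+/+ Tau+. In Ch25h-/- Tau- it was at 53.7, 60.1, 38.1 and 50.7 CPM and in Ch25h-/- Tau+ at 90.0, 66.5, 68.0 and 67.1. The Ch25h+/+ groups overlapped by 1 library, and the Ch25h-/- groups did not overlap. The log2 fold change was 0.44 ± 0.14 over both genotypes (adjusted p = 0.0468, where 9.05% of microglial genes were called), 0.41 ± 0.20 in Ch25h+/+ (0.329) and 0.47 ± 0.20 in Ch25h-/- (0.257). The call was lost on leaving out any of 11 of the 16 libraries, with log2 fold changes of 0.38 to 0.50, and with DESeq2 (adjusted p = 0.0972), nuclei of at least 1000 UMIs (0.125) or doublets kept (0.0572). In the other 7 classes the log2 fold change of Ifnar1 over both genotypes lay between -0.15 ± 0.14 in astrocytes and 0.11 ± 0.20 in oligodendrocyte precursors, and none passed. It was 0.03 ± 0.05 in all nuclei and 2.11e-04 ± 0.05 in all nuclei without microglia.

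Loss of Ch25h, known here by the labels only, since Ch25h counts were not lower, gave no call for any member. In Tau+ libraries 0 of 57 tests passed with edgeR and 0 with DESeq2, where 0.00796% of all tests did with edgeR. The count at an unadjusted p under 0.05 was 3 (5.26%, beside 3.75% of all tests), and the lowest adjusted p was 0.8003. All 3 were of Ifnar2, lower in Ch25h-/-: -0.18 ± 0.07 in all nuclei, -0.49 ± 0.15 in astrocytes and -0.72 ± 0.23 in oligodendrocyte precursors. In astrocytes Ifnar2 was at 34.3, 40.4, 29.6 and 35.5 CPM in Ch25h+/+ Tau+ and at 26.6, 26.9, 17.5 and 26.9 in Ch25h-/- Tau+, with no overlap. In Tau- libraries 0 of 57 tests passed with edgeR and with DESeq2, where 0.00318% of all tests did, and 6 had an unadjusted p under 0.05 (10.5%, beside 3.48% of all tests). These were Irf3 in astrocytes (-0.37 ± 0.14) and CA pyramidal neurons (-0.34 ± 0.14), Cgas in all nuclei (0.32 ± 0.13), Ikbke in astrocytes (0.52 ± 0.21), Ikbke in DG granule neurons, at 2 to 3 UMIs per library in Ch25h+/+ Tau- and 7 to 23 in Ch25h-/- Tau- (log2 fold change 1.80 ± 0.44, unadjusted p = 6.88e-04, adjusted p = 1), and Cgas in CA pyramidal neurons (0.48 ± 0.18, adjusted p = 0.945). Cgas there was at 2.10, 2.52, 2.89 and 2.42 CPM in Ch25h+/+ Tau- and at 3.52, 2.91, 4.45 and 3.33 in Ch25h-/- Tau-, without overlap. The difference between the tau effects of the genotypes passed for 0 of 57 tests with either tool (4 at an unadjusted p under 0.05, or 7.02% beside 4.46% of all tests, lowest adjusted p 0.750), and for 0% of all tests with edgeR.

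Most interferon-stimulated genes tested in astrocytes and in microglia rose with tau. Of 31 interferon-stimulated genes in the files, 18 of 24 tested rose with tau over both genotypes in astrocytes and 15 of 19 in microglia, with median log2 fold changes of 2.33 and 1.29 beside -0.0016 and -0.0033 over all genes of these classes. In all nuclei 26 of 30 rose, in oligodendrocyte precursors 1 of 10 and in oligodendrocytes 2 of 13, and none fell. Whether the classes differ in this was not tested. This list and those below were chosen with earlier results of these data known. Their calls beside the shares of all genes are therefore a description. In the 4 classes of neurons edgeR called 0 of 58 tests of these genes and 0.0471% of all tests, 29 of the 58 had an unadjusted p under 0.05, each higher in Tau+, beside 8.25% of all tests, and DESeq2 called 6 of the 54 it gave an adjusted p, beside 0.396% of all tests. Of all genes, 2.63% were called and higher in Tau+ in astrocytes, 5.41% in microglia, 3.27% in all nuclei, 0.137% in precursors and 0.218% in oligodendrocytes. Those named by the largest fold changes were Ifi44 (5.46 ± 1.06), Oasl2 (4.20 ± 0.85), Usp18 (3.86 ± 0.72) and Ddx60 (3.09 ± 0.62) in astrocytes and Oasl2 (4.45 ± 0.86), Usp18 (3.11 ± 0.73), Ifit3 (2.51 ± 0.71) and Sp100 (2.17 ± 0.43) in microglia. Their adjusted p-values were 0.00652 to 0.0296. Ifi44 had no UMI in Ch25h-/- Tau- astrocytes, so its fitted fold change depends on the prior count. The chemokine Cxcl10, a target of IRF3, rose by 3.28 ± 0.76 in all nuclei (adjusted p = 0.0247).

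Among 14 genes of receptor signalling and interferon regulatory factors, 6 of 10 tested rose in astrocytes, 5 of 11 in microglia, 2 of 7 in oligodendrocyte precursors, 1 of 8 in oligodendrocytes and 8 of 14 in all nuclei, beside 2.63%, 5.41%, 0.137%, 0.218% and 3.27% of all genes in the same order. Irf9, the DNA-binding part of the receptor's complex, rose in microglia (0.89 ± 0.16, adjusted p = 9.68e-04), astrocytes (1.20 ± 0.20, 0.00316) and precursors (1.69 ± 0.32, 0.0141). Its partner Stat2 rose in microglia by 1.29 ± 0.34 and in oligodendrocytes by 0.59 ± 0.12. Usp18, which restrains signalling at IFNAR2, was among the largest in both glial classes, and Socs3 rose in astrocytes by 3.28 ± 0.66.

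Of 21 other nucleic acid sensors and their adaptors, 3 of 12 tested rose in astrocytes, 3 of 14 in microglia and 6 of 19 in all nuclei, beside 2.63%, 5.41% and 3.27% of all genes. Tank, a scaffold of TBK1 and IKKε, rose in microglia by 1.11 ± 0.17 (adjusted p = 4.70e-04), from 87.4 ± 17.9 and 83.8 ± 14.0 CPM in Tau- to 192 ± 74.3 and 183 ± 36.8 in Tau+ (SD, n = 4, Ch25h+/+ first), and passed within each genotype (0.0231 and 0.0289). Optn, an adaptor that binds TBK1, rose there by 1.75 ± 0.34 and the DNA-binding gene Ifi204 by 3.86 ± 0.93. In astrocytes the RNA sensors Ddx58 (RIG-I, 0.98 ± 0.23) and Ifih1 (MDA5, 0.92 ± 0.25) rose, as did Unc93b1 (0.85 ± 0.18), which carries Toll-like receptors to endosomes. Of genes whose loss raises interferon, Adar (0.98 ± 0.27) and Samhd1 (0.46 ± 0.14) rose in microglia. These were 2 of 7 tests there and 2 of 72 over all sums, where 1.23% of all tests were called and higher, so nothing is read from them about that list. Of 22 genes of cGAMP transport and STING traffic, 0 rose in 152 tests and 1 fell, Zdhhc15 in all nuclei (-0.23 ± 0.06, adjusted p = 0.0395), where 0.572% of all tests were called and lower, so nothing is read from it about that list.

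Within single genotypes fewer passed: of 110 tests over all sums the sensor list had 2 calls in Ch25h+/+ and 1 in Ch25h-/-, of 84 the receptor signalling list had 1 and 2, and of 154 the interferon-stimulated list had 0 and 5. All were higher in Tau+, as were 0.174% and 0.211% of all tests. Among the last were Eif2ak2 (1.67 ± 0.29) and Rnf213 (1.44 ± 0.31) in Ch25h-/- microglia. No list had a call for Ch25h loss or for the difference between the tau effects. Genes of type I interferons themselves had few UMIs. Of 18, 8 had a UMI, with 231 UMIs in all nuclei, of which 217 were Ifnk and 2 were Ifnb1. The 1 test that passed the filter in that list was not called in any comparison.

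In astrocytes the summed interferon-stimulated genes were again low in replicate 3 of both Tau+ groups, at 353 and 333 CPM, against 511 to 1412 in the other 6 Tau+ libraries and 241 to 354 in Tau-. Ikbke did not share this in astrocytes, where replicate 3 was the lowest library of Ch25h+/+ Tau+ (14.1 CPM) but the highest of Ch25h-/- Tau+ (22.0 CPM).

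**Figure D5:**
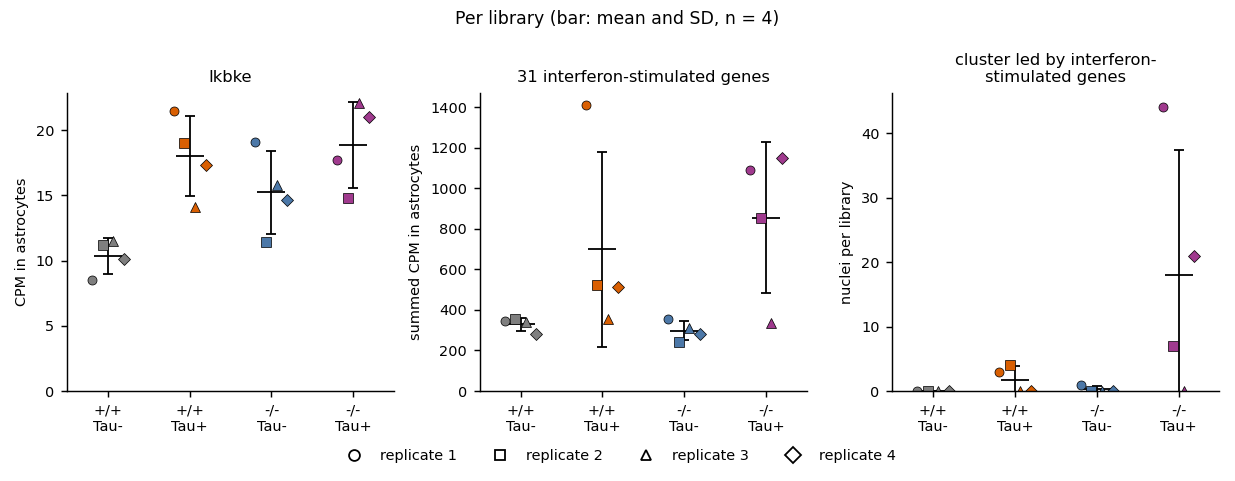
Per library, Ikbke in astrocytes (left, CPM), the summed level of 31 interferon-stimulated genes in astrocytes (middle, CPM) and the number of nuclei in a cluster led by such genes (right); bars are the mean and SD of 4 libraries and symbols the replicates. Replicate 3 (triangle) of the Tau+ groups lies with Tau- in the middle panel (353 and 333 CPM) and has 0 nuclei on the right, while on the left it reaches 14.1 and 22.0 CPM.

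A small cluster of 80 nuclei was led by interferon-stimulated genes and was given no cell type name. It held 44, 7, 0 and 21 nuclei of Ch25h-/- Tau+, 3, 4, 0 and 0 of Ch25h+/+ Tau+, 1 of Ch25h-/- Tau- and none of Ch25h+/+ Tau-. Its level of Prox1, a marker of DG granule neurons, was 263 CPM beside 273 in that class. Of its other markers, Plk5 was at 33.8 CPM (95% Poisson interval 21.2 to 51.2, counting error only) beside 74.6, Dsp at 30.7 (18.8 to 47.5) beside 46.4 and C1ql2 at 27.7 (16.4 to 43.7) beside 38.0. Pomc and Prl were among the cluster's 10 leading genes. In these nuclei Ifit1 was at 469 CPM. Of the members, Ifnar2 was at 29.2 CPM, Ifnar1 at 23.1 and Tbk1 at 84.6. No UMI of Cgas, Tmem173, Ikbke or Enpp1 was found, which allows up to 4.61 CPM of each, above the level of these genes in DG granule neurons. Their absence is therefore no difference detectable at this depth.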

How the data were processed

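RNA of single hippocampal nuclei was counted with the 10x Chromium 3' kit version 3.1, per the labels' protocols. The deposited values are raw UMI counts per gene and barcode, made by the authors with Cell Ranger 4 per the file headers and 3.1.0 per the submitters' processing notes, which name mm10. A barcode was kept (147873) if it had 500 UMIs or more, 300 genes or more, mitochondrial UMIs of 5% or less, and a total of 3 times or more that of the median barcode among ranks 40001 to 60000, and 11045 scored as doublets, at 0.8% per 1000 nuclei, were removed. Nuclei were clustered with scanpy 1.11.5 (3000 variable genes, 50 components, 20 neighbours, Leiden resolution 1) into 42 clusters, of which 26 were named from at least 3 markers at 2-fold or more. UMIs were summed per library in 8 classes (those reaching 20 nuclei in each library) and over all nuclei, and tested with edgeR 4.0.16 (filterByExpr, TMM, quasi-likelihood, 4 groups in one fit), with p-values adjusted by Benjamini-Hochberg over all genes of a sum. Replicate numbers follow accession order and pair nothing. Libraries of 1 group differed beyond sampling noise (chi-square per degree of freedom 7.83 to 58.2 over 24 pairs), so none was taken for a second deposit of another; this does not show that they came from separate animals.

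The scripts were tested on simulated data. Alternatives were RLE scaling, DESeq2 1.42.0, no filter on low counts, at least 1000 UMIs per nucleus, doublets kept, resolution 2, the library split as a term or each side alone, and each library left out. Exact permutation tests of Ikbke in microglia and the sum without microglia were added after seeing the data. The members and gene lists were chosen with earlier results of these data known. All 10 members are named, and a gene of a list is named where called, up to the 4 largest fold changes per class and comparison; a gene of the receptor signalling list is counted but not reported here. Intervals and floors cover counting error only. Of the 32285 gene identifiers 32235 were in GENCODE M21 (GRCm38), from which positions and overlaps were taken.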

Additional observations from a re-analysis of the deposited data

Results flagged for a closer look

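Ifnar1 in microglia of Ch25h-/- Tau+ was at 90.0 CPM in replicate 1, apart from the other 3 libraries, the nearest of which was at 68.0. Tmem173 in microglia of Ch25h-/- Tau- was at 45.7 CPM in replicate 3, with the nearest library at 95.1. Of 44 sets of 4 libraries checked for a library far from the others, 3 had one, and chance gives about 1 in 20. The third was the cluster led by interferon-stimulated genes, with 1 nucleus in Ch25h-/- Tau- replicate 1 and 0 in the other 3 libraries. That cluster entered no comparison. It held 7 nuclei in the 4 libraries of Ch25h+/+ Tau+ against 0 in Ch25h+/+ Tau-, and 72 in those of Ch25h-/- Tau+ against 1 in Ch25h-/- Tau-.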

How the results depend on the processing

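Of 478 log2 fold changes recomputed under alternatives for 19 results, 421 kept their direction and side of the threshold, 53 lost their call, 2 gained one and 2 turned. All 53 losses were of results called in the main fit, and the other results had no call to lose. Ifnar2 in all nuclei lost its call in Ch25h+/+ without 11 of 16 libraries and under 3 of 10 other settings. Over both genotypes it did so for 0 of 16 and 3 of 10. For Ikbke in astrocytes these were 13 of 16 and 7 of 9, and for Ifnar1 in microglia 11 of 16 and 5 of 9. Those that turned were Tmem173 in microglia over both genotypes within replicates 3 and 4 (0.20) and Mavs there within replicates 1 and 2 (0.15). The cause was not tested. The count of member tests called for tau in Ch25h+/+ (1) was 2 without the filter on low counts, 0 within replicates 3 and 4, and 0 to 1 on leaving out 1 library. In Ch25h-/- (0) it was 1 without the filter, 1 within replicates 1 and 2, and 0 to 1 on leaving out 1 library, with 1 without Ch25h+/+ Tau+ replicate 3. Over both genotypes (3) it was 1 with at least 1000 UMIs per nucleus, 0 within replicates 3 and 4, and 1 to 3 on leaving out 1 library, with 1 without Ch25h+/+ Tau+ replicate 1 or 2 or Ch25h-/- Tau+ replicate 1 or 4. For Ch25h loss and for the difference between tau effects it was 0 in all 25 alternatives. The share of all tests called under each alternative is not given here, and without the filter more member tests were run. These counts therefore show only how the calls moved, and nothing about the members beside all genes. The exact permutation p of Ikbke in microglia over both genotypes was 8.16e-04 to 0.0155 on leaving out 1 library. No paired analysis was possible because the replicate numbers follow accession order. Depth limits Ikbke in microglia, with 0 to 30 UMIs per library, and the classes of few nuclei, which were not tested.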
